A study of Mus musculus with 90 samples.

Results

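Lymph node Ebi3 Tregs were compared with lymph node DN Tregs over 6 libraries of mouse regulatory T cells (Tregs), 3 in each group, out of 90 libraries in the series, the rest being other Treg populations and sites and CD8 T cells. The Ebi3 group holds Tregs labelled as the Ebi3 population, and the DN group holds Tregs labelled double negative, both from a non-draining lymph node of mice whose genotype is given as WT. Per the design text, Tregs were sorted by expression of IL10 and of IL35, and the label Ebi3 names a subunit of IL35. The members were taken by title and labelled population, and the labels give a batch, with 1 Ebi3 and 1 DN library in each of batches 1, 2 and 3. Strain, age, sex, tumour model, reporter allele and number of mice per library have no label. Nothing says that a group's libraries came from separate mice, and p-values then cover only the spread between libraries, which may be technical. Cells were sorted in 2 passes to over 95% purity, and cDNA was made with SMART-Seq v4. Further sets were used to place the comparison: lymph node IL10 Tregs, and Ebi3 with DN Tregs from naive mice and from tumours (TIL), each with 3 libraries of the same 3 batches.

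Tregs hold back other T cells, and the transcription factor Foxp3 keeps their identity. Resting Tregs circulate through lymph nodes by way of the receptors Ccr7 and S1pr1, while effector Tregs, after antigen contact, carry Icos, Klrg1, Itgae and Tigit and enter tissues. IL35 is a dimer of Ebi3 and the Il12a chain, and Ebi3 also pairs with Il27 to form IL27. A library here is an average over many cells, so more cells of one state and more RNA per cell cannot be told apart.

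The Ebi3 libraries held 17893712, 11132027 and 20217970 counts and the DN libraries 15113327, 11397960 and 17743339, with 12504 to 12938 genes detected in Ebi3 libraries and 11840 to 12154 in DN libraries. Levels below are CPM, counts scaled to the library total, in the order of batches 1, 2 and 3, and they are not corrected for gene length, so they compare libraries and not genes. Ebi3 stood at 4.92, 6.92 and 10.6 CPM in Ebi3 Tregs, against 0.199, 0.263 and 2.87 CPM in DN Tregs. The groups did not overlap for this sort gene, with a log2 fold change of 2.99 ± 1.33 (SE), but the difference did not pass the test (adjusted p = 0.146). It passed in 1 of 17 alternatives, the fit of the 6 libraries alone with the batch block (adjusted p = 0.0443). Il12a, Il12b and Il27 had 0 counts in all 6 libraries, where 3 counts would be 0.148 to 0.269 CPM. Il10 stood at 5.14, 0 and 1.93 CPM in Ebi3 Tregs, against 0.132, 0 and 0.113 CPM in DN Tregs. Il10 overlapped between the groups because both batch 2 libraries were at 0, and the fitted difference was 4.51 ± 0.90 (adjusted p = 0.00109), which did not pass without batch 1 (adjusted p = 0.0685) or batch 3 (adjusted p = 0.06). The Il10 difference also did not pass in limma on the deposited log2 values, and the fit of the 6 libraries alone did not test it. The T cell and CD4 markers summed to 4298, 3531 and 4341 CPM in Ebi3 Tregs, against 4626, 3739 and 4867 CPM in DN Tregs. Within each batch the Ebi3 sum was lower, and of 6 markers tested Cd3e and Cd247, chains of the T cell receptor complex, passed as lower and 0 as higher, with Cd3e passing in 2 of 9 fits that left out a batch or 1 library.

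One library stood apart in macrophage genes. Lyz2, the macrophage lysozyme, stood at 4.53, 1.53 and 189.8 CPM in Ebi3 Tregs, against 0, 0 and 0 CPM in DN Tregs, and its high value was in the Ebi3 library of batch 3. That library also had the highest Apoe, at 4.69, 0.629 and 18.1 CPM in Ebi3 Tregs, against 5.36, 1.32 and 2.37 CPM in DN Tregs. Macrophage and monocyte markers summed to 14.5, 3.77 and 223 CPM in Ebi3 Tregs, against 9.59, 3.25 and 5.24 CPM in DN Tregs, and 8 of the 14 markers had 0 counts in all 6. MHC class II and dendritic cell markers summed to 744, 589 and 830.0 CPM in Ebi3 Tregs, against 329.8, 189 and 344 CPM in DN Tregs, so the groups did not overlap. Most of that sum was Cd74, the MHC class II invariant chain, and the summed level of the other 11 markers averaged 99.8 CPM over the Ebi3 libraries and 84.8 CPM over the DN libraries. B cell markers summed to 97.6, 105 and 67 CPM in Ebi3 Tregs and 57, 42 and 21.5 CPM in DN Tregs, again without overlap. Most of that sum was 1 marker, and without it the mean sums were 28.7 CPM in Ebi3 Tregs and 10.6 CPM in DN Tregs. Plasma cell markers, nearly all of them Derl3, summed to 12.4, 22 and 24.2 CPM in Ebi3 Tregs and 6.48, 6.93 and 6.14 CPM in DN Tregs. NK cell markers stayed at or below 16.1 CPM in every library, CD8 T cell markers summed to 18.5, 28.4 and 22 CPM in Ebi3 Tregs and 26.9, 29.1 and 37.4 CPM in DN Tregs, and neutrophil and erythroid and platelet markers stayed below 1 CPM. Stromal and endothelial markers summed to 394, 571 and 354 CPM in Ebi3 Tregs and 623, 698 and 512 CPM in DN Tregs, most of it Ly6a, which T cells also express. Without the most abundant member the mean sums were 95.1 CPM in Ebi3 Tregs and 224.8 CPM in DN Tregs. Of 5 stromal and endothelial markers tested, 1 passed as higher and 1 as lower. The part of these markers in the results below was not tested, and counts without the Ebi3 library of batch 3 are given beside the gene groups.

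Ebi3 Tregs were higher in 898 genes (6.96% of 12907 tested) and lower in 783 (6.07%), at an adjusted p under 0.05. The rises included effector Treg genes and cell cycle genes. The falls included genes of resting, recirculating T cells, interferon-response genes and Socs genes. The 3 Ebi3 libraries lay wholly outside the range of the 3 DN libraries in 779 of the 898 genes and in 572 of the 783. These genes were called from the same libraries, so the lack of overlap is not separate support for the calls. The share without overlap over all genes tested was not counted. Without the Ebi3 library of batch 3 the counts were 597 and 463, without that of batch 2 they were 548 and 560, without the DN library of batch 1 they were 558 and 496, and without the block for batch they were 415 and 347. Any gene said below to have risen or fallen in the lymph node, singly and with its values, also passed in each of 9 fits that left out a batch or 1 of the 6 libraries, unless an exception is given.

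**Figure D1:**
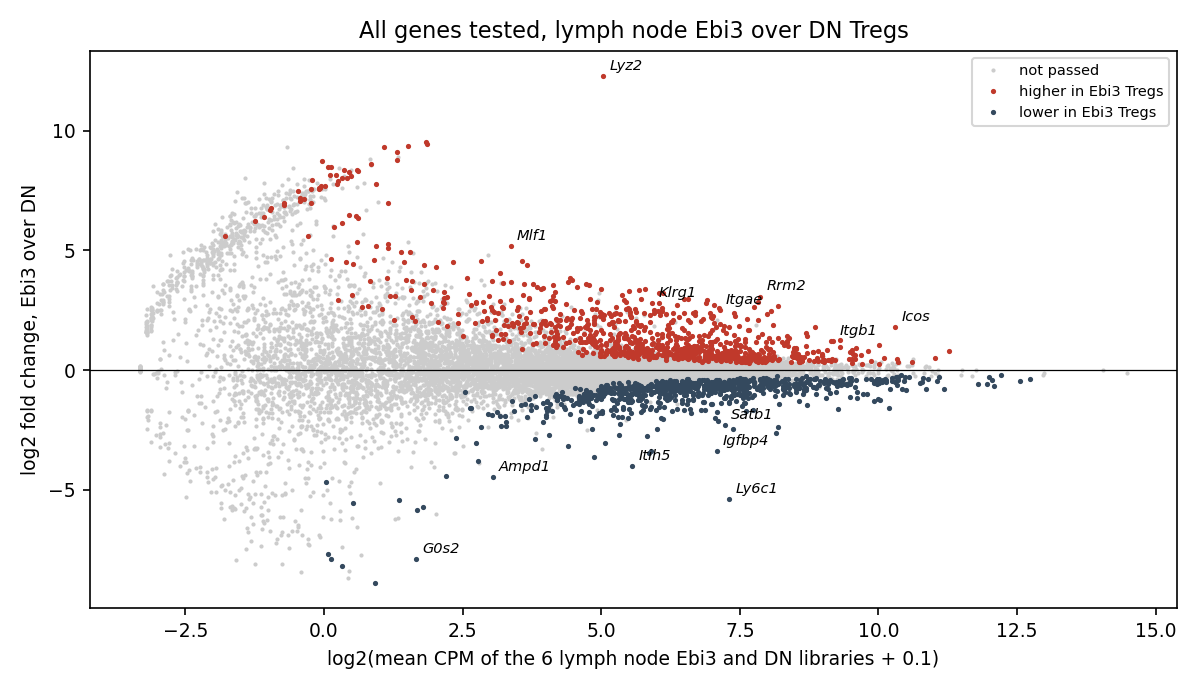
Log2 fold change of Ebi3 over DN Tregs in the lymph node (vertical axis) against the log2 of the mean CPM of the 6 libraries plus 0.1 (horizontal axis), one point for each of 12907 genes. Red points are the 898 genes that were higher and dark points the 783 that were lower at an adjusted p under 0.05, and Lyz2 and Ly6c1 stand far from zero at levels well above the low-count edge.

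Effector Treg genes were higher in Ebi3 Tregs. Of 27 listed genes 21 rose and 0 fell, with a median log2 fold change of 1.21, against 0.02 over all genes tested. Their summed level was 7258, 7152 and 7526 CPM in Ebi3 Tregs, against 2546, 2762 and 4017 CPM in DN Tregs. The count was 18 without the Ebi3 library of batch 3, 11 without the batch block and 12 without batch 2. Without batch 3 as a whole 18 rose and 1 fell. Cd74, at 614, 512 and 737 CPM in Ebi3 Tregs, against 233, 125 and 250.5 CPM in DN Tregs, and the B cell and plasma cell marker sums were also higher in the Ebi3 libraries. The Cd74 difference did not pass without batch 3 (adjusted p = 0.0599).

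Among surface receptors, Itgae, the CD103 integrin chain that binds E-cadherin on epithelia, stood at 206, 317 and 190.2 CPM in Ebi3 Tregs, against 23.8, 70.9 and 35.5 CPM in DN Tregs. All 3 Ebi3 libraries were above all 3 DN libraries, and the log2 fold change was 2.49 ± 0.21 (adjusted p = 1.68e-08). Icos, the costimulatory receptor of effector Tregs, stood at 1899, 2092 and 1906 CPM in Ebi3 Tregs, against 371, 539.5 and 753 CPM in DN Tregs, a log2 fold change of 1.80 ± 0.15 (adjusted p = 8.5e-09). Klrg1, an inhibitory lectin receptor of terminally differentiated Tregs, stood at 100.3, 93.8 and 117 CPM in Ebi3 Tregs, against 0.662, 16.8 and 33.6 CPM in DN Tregs. Its DN libraries were widely spread, and its rise of 2.79 ± 0.70 (adjusted p = 0.0113) did not pass without batch 2 (adjusted p = 0.149) or batch 3 (adjusted p = 0.0838). Il1rl1, the IL33 receptor ST2, rose by 1.68 ± 0.27 (adjusted p = 0.000114), with 33.4, 60.6 and 53.7 CPM in Ebi3 Tregs, against 12.8, 7.46 and 22 CPM in DN Tregs. Tigit, which competes with the costimulatory receptor CD226 for ligand, rose by 1.40 ± 0.35 (adjusted p = 0.00993), but not without the DN library of batch 2 (adjusted p = 0.0641) or batch 2 (adjusted p = 0.201).

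Secreted and nuclear effector genes moved with them. Fgl2, a secreted suppressive molecule of Tregs, stood at 30.8, 28.3 and 47 CPM in Ebi3 Tregs, against 6.02, 5.53 and 13.2 CPM in DN Tregs, a log2 fold change of 2.07 ± 0.20 (adjusted p = 1.25e-07). Maf, a transcription factor that drives Il10 in T cells, stood at 95.1, 70.2 and 85.8 CPM in Ebi3 Tregs, against 11.8, 14.7 and 17.7 CPM in DN Tregs, a log2 fold change of 2.44 ± 0.33 (adjusted p = 1.83e-05). Batf, an AP-1 family factor needed for effector Treg differentiation, rose by 1.15 ± 0.12 (adjusted p = 3.75e-07), with 341, 317 and 391 CPM in Ebi3 Tregs, against 156, 146 and 151 CPM in DN Tregs. For these 3 genes no Ebi3 library overlapped a DN library. Gzmb, the cytotoxic protease granzyme B, rose by 2.24 ± 0.70 but near the threshold (adjusted p = 0.04), passed in 2 of 9 leave-out fits, and stood highest in the Ebi3 library of batch 2, at 21, 121 and 38.7 CPM in Ebi3 Tregs, against 4.23, 19.7 and 11.8 CPM in DN Tregs. Lag3, Entpd1, Nfil3, Tnfrsf9, Gata3 and Nt5e did not pass. Of these Lag3, the MHC class II-binding inhibitory receptor, had 13.4, 31.8 and 13.5 CPM in Ebi3 Tregs, against 25.4, 59.8 and 11.7 CPM in DN Tregs, a log2 difference of -0.76 ± 0.50 (adjusted p = 0.369).

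**Figure D2:**
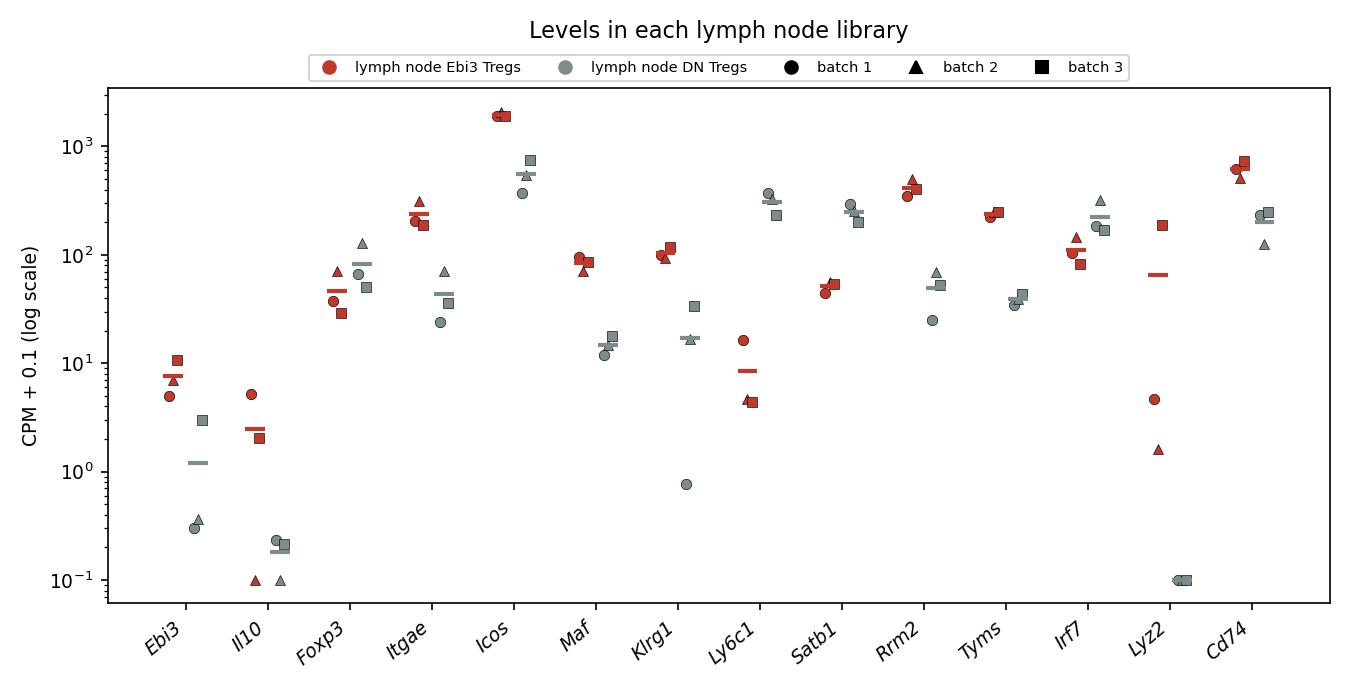
CPM plus 0.1 on a log scale (vertical axis) for 14 genes in each lymph node Ebi3 library (red, left) and DN library (grey, right), with symbols for the 3 batches and a bar at the mean. The Itgae, Icos and Maf libraries separate upward and the Ly6c1 and Satb1 libraries downward in Ebi3 Tregs, and the single high Lyz2 point is the Ebi3 library of batch 3.

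Genes of resting Tregs were lower in Ebi3 Tregs. Of 17 listed genes 12 fell and 0 rose, with a median log2 fold change of -1.21. Their summed level was 2795, 3034 and 2649 CPM in Ebi3 Tregs, against 6636, 7793 and 5941 CPM in DN Tregs, and 10 fell without the Ebi3 library of batch 3.

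Within the list Ly6c1, a surface antigen of resting T cells, had the largest log2 fold change. It stood at 16.3, 4.58 and 4.25 CPM in Ebi3 Tregs, against 368, 327 and 232 CPM in DN Tregs, a log2 fold change of -5.37 ± 0.32 (adjusted p = 3.75e-11). Ly6c1 has the closely similar copy Ly6c2, and no label says how reads common to both were counted. Igfbp4, an insulin-like growth factor binding protein, stood at 38.2, 13.4 and 17.5 CPM in Ebi3 Tregs, against 196, 398 and 148 CPM in DN Tregs, and its log2 fold change was -3.40 ± 0.62 (adjusted p = 0.000882). Satb1, a chromatin organiser of naive T cells, stood at 44.7, 56.2 and 53.6 CPM in Ebi3 Tregs, against 294, 252 and 199 CPM in DN Tregs, a log2 fold change of -2.30 ± 0.22 (adjusted p = 1.46e-07). Every Ebi3 library was below every DN library for these 3 genes.

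Receptors of recirculation and their regulator Klf2 were among the falls. S1pr1, the sphingosine phosphate receptor for leaving the node, stood at 279, 399 and 259.5 CPM in Ebi3 Tregs, against 881, 1067 and 808 CPM in DN Tregs, a log2 fold change of -1.62 ± 0.18 (adjusted p = 9.53e-07). Klf2, the transcription factor that activates S1pr1, fell by 1.50 ± 0.32 (adjusted p = 0.00188), but not without batch 2 (adjusted p = 0.0602). Ccr7, the receptor for the chemokines of the T cell zone, stood at 511, 527 and 439 CPM in Ebi3 Tregs, against 1007, 1332 and 903 CPM in DN Tregs. Its libraries did not overlap, but its log2 fold change of -1.19 ± 0.36 (adjusted p = 0.0316) passed in only 2 of 9 leave-out fits. Lef1 fell by 0.98 ± 0.13 (adjusted p = 7.68e-06), while Tcf7, its partner in the TCF family, had 199, 182 and 230.4 CPM in Ebi3 Tregs, against 287, 301 and 231 CPM in DN Tregs and a log2 difference of -0.46 ± 0.32 (adjusted p = 0.383). Foxo1 and Foxp1, factors of T cell quiescence, fell by 0.77 ± 0.14 (adjusted p = 0.000406) and 1.04 ± 0.15 (adjusted p = 2.43e-05). Tcf7, Bach2, Id3, Il7r and Dapl1 were the 5 members that did not pass.

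Cell cycle genes were higher in Ebi3 Tregs. Of 21 listed genes 16 rose and 0 fell, with a median log2 fold change of 2.09. The 21 genes summed to 5817, 7672 and 6662 CPM in Ebi3 Tregs, against 1247, 2078 and 1971 CPM in DN Tregs. The groups did not overlap in any of the 21, but the share of such genes over all genes tested was not counted. The count was 13 without the Ebi3 library of batch 3 and 8 without batch 3 as a whole. The smallest adjusted p-values were at genes of DNA replication and chromatin, while 5 genes of mitosis did not pass. All 21 had an unadjusted p under 0.05 in edgeR, as had 3347 of the 12907 genes tested, and the fit of the 6 libraries alone called 20 of the 21. The 2 kinds of gene were not tested against each other.

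Rrm2, the ribonucleotide reductase subunit that makes deoxynucleotides, stood at 347, 500.5 and 406 CPM in Ebi3 Tregs, against 25.2, 69.1 and 52.9 CPM in DN Tregs, a log2 fold change of 3.06 ± 0.46 (adjusted p = 0.000118). Tyms, thymidylate synthase, stood at 223, 250.4 and 246 CPM in Ebi3 Tregs, against 34.2, 38.7 and 43.5 CPM in DN Tregs, a log2 fold change of 2.57 ± 0.38 (adjusted p = 6.45e-05). The MCM helicase genes Mcm2, Mcm3, Mcm5 and Mcm6 rose by 1.13 ± 0.23, 1.84 ± 0.28, 2.07 ± 0.28 and 1.22 ± 0.15, with the exception that Mcm2 did not pass without batch 3 (adjusted p = 0.0608). Among mitotic genes, Cdk1, the kinase that starts mitosis, stood at 177, 268 and 195 CPM in Ebi3 Tregs, against 14.4, 33.3 and 33.6 CPM in DN Tregs. Its rise of 2.94 ± 0.85 carried a large error and passed (adjusted p = 0.0267) in 1 of 9 leave-out fits. Mki67, the Ki-67 antigen of cycling cells, had 276, 372 and 315 CPM in Ebi3 Tregs, against 39.3, 98.8 and 82.7 CPM in DN Tregs and a rise of 2.12 ± 0.64 (adjusted p = 0.034) that passed in 1 of 9, as did Top2a, the DNA topoisomerase of dividing cells, with 387, 476 and 422 CPM in Ebi3 Tregs, against 74, 96.9 and 77.5 CPM in DN Tregs and a rise of 2.32 ± 0.71 (adjusted p = 0.0368). Ccnb1, Ccnb2, Cdc20, Cenpe and Ube2c, which act in mitosis, had log2 differences of 1.72 ± 0.81, 1.89 ± 0.70, 1.23 ± 0.42, 2.0 ± 0.78 and 2.09 ± 0.90 and did not pass.

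Promoters were read from RefSeq on GRCm38.p6, from 250 bases before to 50 after the start of transcription, for 9570 of the 12907 genes tested. A cell cycle homology region (CHR) motif, TTTGAA on either strand, is known from promoters of mitotic genes. It was found in the promoters of 8 of 18 proliferation genes (44.4%), in 21.9% of the 645 genes that rose, in 13.3% of the 579 that fell and in 14.4% of all 9570. An E2F-like motif, GCGGGAA on either strand, was in 1 of 18 proliferation promoters (5.56%), in 17.2% of genes that rose, 5.87% of those that fell and 9.91% of all. Among genes called in every leave-out fit, CHR was in 22.2% of rises and 18.8% of falls, and the E2F-like motif in 37 of 185 promoters of rises and 10 of 160 of falls. Both motifs were added after the rise of the proliferation genes was seen. Promoters are shown for 3 proliferation genes that rose and carry the CHR motif in 2 places each, and for Mlf1, a named riser with an E2F-like motif. The motifs are in capitals.
Cdk1 (chr10:69352863-69353162, minus strand): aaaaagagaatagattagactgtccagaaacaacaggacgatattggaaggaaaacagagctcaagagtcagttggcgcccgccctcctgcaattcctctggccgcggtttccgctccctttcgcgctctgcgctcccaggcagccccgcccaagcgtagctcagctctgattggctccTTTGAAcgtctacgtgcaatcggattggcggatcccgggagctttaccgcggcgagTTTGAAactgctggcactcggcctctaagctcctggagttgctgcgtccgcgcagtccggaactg
Top2a (chr11:99024140-99024439, minus strand): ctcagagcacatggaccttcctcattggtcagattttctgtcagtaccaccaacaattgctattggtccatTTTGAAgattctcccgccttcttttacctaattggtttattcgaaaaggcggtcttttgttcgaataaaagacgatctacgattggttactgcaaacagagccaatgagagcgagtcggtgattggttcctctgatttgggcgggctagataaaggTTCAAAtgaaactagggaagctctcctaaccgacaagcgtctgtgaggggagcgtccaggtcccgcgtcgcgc
Mki67 (chr7:135716330-135716629, minus strand): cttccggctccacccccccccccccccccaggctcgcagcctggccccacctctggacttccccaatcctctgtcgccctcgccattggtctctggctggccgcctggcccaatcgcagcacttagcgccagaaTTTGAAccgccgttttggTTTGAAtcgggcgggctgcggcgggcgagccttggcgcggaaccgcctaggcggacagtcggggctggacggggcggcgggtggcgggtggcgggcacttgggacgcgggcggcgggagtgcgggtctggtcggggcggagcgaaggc
Mlf1 (chr3:67373847-67374146, plus strand): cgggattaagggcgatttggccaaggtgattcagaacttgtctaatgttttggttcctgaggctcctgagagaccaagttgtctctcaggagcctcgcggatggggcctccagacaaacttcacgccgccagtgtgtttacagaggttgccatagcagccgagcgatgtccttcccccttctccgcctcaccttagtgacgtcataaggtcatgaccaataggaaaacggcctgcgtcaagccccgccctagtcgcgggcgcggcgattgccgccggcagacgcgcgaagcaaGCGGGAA
The TCF/LEF motif CTTTGA, which overlaps the CHR motif in the run CTTTGAA, was in 13.6% of genes that rose, 16.6% of those that fell and 14.3% of all. The KLF motif CCNCNCCC was in 70.1% of genes that rose, 72.0% of those that fell and 71.5% of all, and the AP-1 motif TGANTCA in 6.67%, 6.74% and 6.09%. Among genes called in every leave-out fit, the AP-1 motif was in 19 of 185 promoters of rises (10.3%) and 12 of 160 of falls (7.5%). The Blimp-1 motif GAAAGTGA was in 1.24%, 2.76% and 1.77%. Each match is a run of letters in the window and not a measured site.

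**Figure D3:**
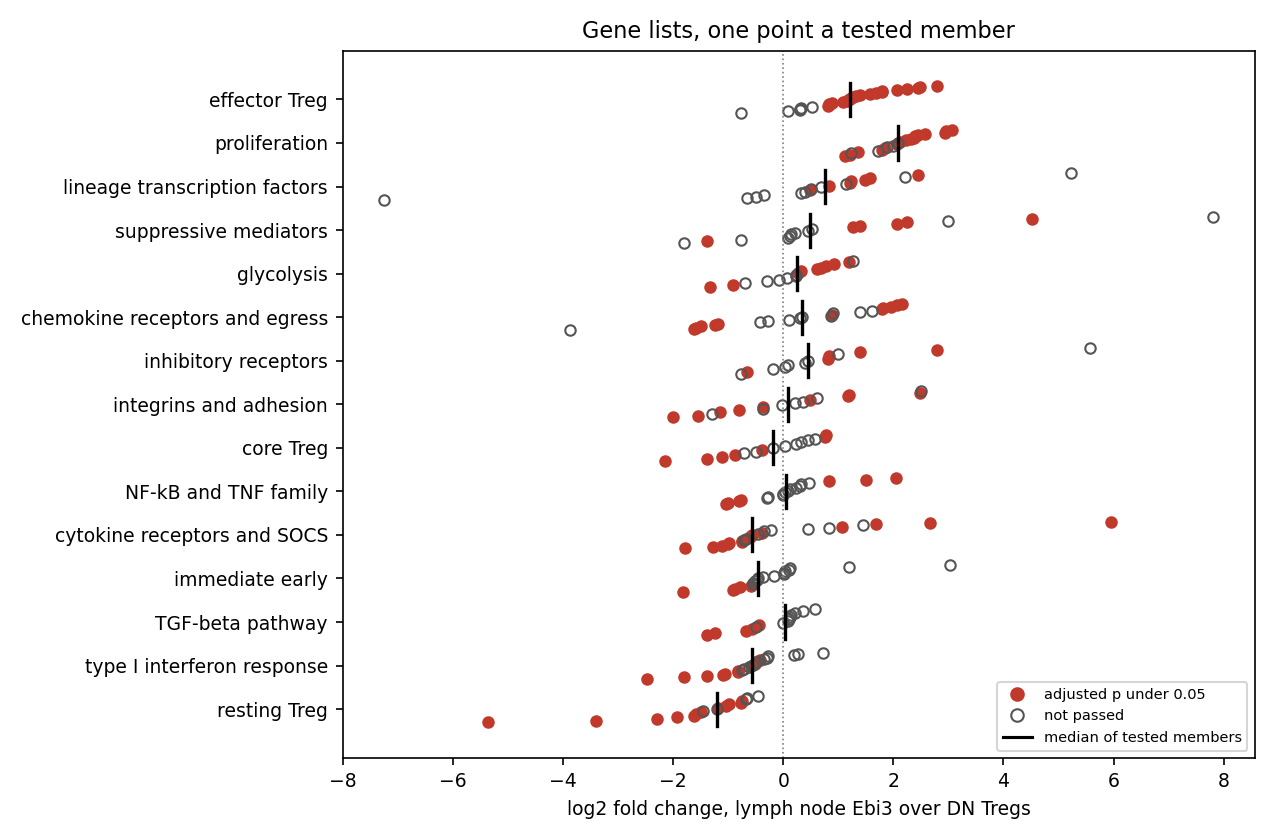
Log2 fold change of lymph node Ebi3 over DN Tregs (horizontal axis) for each tested member of 15 gene lists (rows), filled where the adjusted p was under 0.05, with a black bar at the list's median. The proliferation row lies wholly right of zero, the effector row right of it but for Lag3 at -0.76, and the resting row wholly left, with medians of 2.09, 1.21 and -1.21.

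Interferon-response genes were lower in Ebi3 Tregs. Of 22 listed genes 11 fell and 0 rose, with a median log2 fold change of -0.57. Their summed level was 2807, 3412 and 2631 CPM in Ebi3 Tregs, against 4238, 4855 and 3972 CPM in DN Tregs. The count was 7 without the Ebi3 library of batch 3 and 6 without batch 2. Irf7, the transcription factor that amplifies the response, stood at 104, 145 and 82.2 CPM in Ebi3 Tregs, against 186, 321 and 168 CPM in DN Tregs, a log2 fold change of -1.06 ± 0.16 (adjusted p = 5.77e-05). Ifit1, which binds viral RNA that lacks cap methylation, stood at 89.8, 160.3 and 86.7 CPM in Ebi3 Tregs, against 286, 339 and 197 CPM in DN Tregs, a log2 fold change of -1.38 ± 0.22 (adjusted p = 0.000122). Oasl2, of the oligoadenylate synthetase family, fell by 1.80 ± 0.34 (adjusted p = 0.000589), and Rtp4 fell by 0.83 ± 0.15 (adjusted p = 0.00035). Within each batch the Ebi3 library was below the DN library for all 4. Isg15, Mx1, Ifi44 and Oas1a did not pass, with log2 differences of -0.29 ± 0.39, 0.20 ± 0.71, 0.26 ± 1.09 and 0.73 ± 0.28.

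Cytokine receptors moved both ways. Of 23 genes of cytokine receptors and SOCS feedback inhibitors 4 rose and 11 fell, or 3 and 4 without the Ebi3 library of batch 3. Of the 4 rises, 3 were receptors of the IL1 family, Il1rl1 among them. Il1r2, the decoy receptor for IL1, stood at 460.0, 436 and 621 CPM in Ebi3 Tregs, against 120.2, 30.9 and 87.1 CPM in DN Tregs, a log2 fold change of 2.67 ± 0.34 (adjusted p = 2.1e-05). Il18r1, the IL18 receptor, rose by 1.07 ± 0.23 (adjusted p = 0.00187), but not without batch 2 (adjusted p = 0.0855) or batch 3 (adjusted p = 0.0868). Il12rb2, a chain of the IL12 and IL35 receptors, was at 2.63, 1.62 and 1.88 CPM in Ebi3 Tregs, against 0, 0.0877 and 0 CPM in DN Tregs, and its rise (adjusted p = 0.0349) passed in 0 of 9 leave-out fits.

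The falls included receptors and inhibitors of JAK-STAT signalling. Socs1, which blocks JAK kinases, stood at 97.4, 58.8 and 84.9 CPM in Ebi3 Tregs, against 153, 139.9 and 153 CPM in DN Tregs, a log2 fold change of -0.98 ± 0.16 (adjusted p = 0.000171). Socs3, which blocks signalling from the gp130 receptor, stood at 13.8, 22.5 and 7.07 CPM in Ebi3 Tregs, against 34.8, 78.7 and 29.9 CPM in DN Tregs, a log2 fold change of -1.78 ± 0.40 (adjusted p = 0.00306). Il4ra, the IL4 receptor chain, fell by 1.27 ± 0.26 (adjusted p = 0.00112), but not without batch 2 (adjusted p = 0.0795). Il6st, which encodes gp130, stood at 92.6, 99.7 and 86 CPM in Ebi3 Tregs, against 150.3, 283 and 133 CPM in DN Tregs, and its log2 fold change of -1.0 ± 0.28 (adjusted p = 0.0162) passed in 3 of 9 leave-out fits. The IL35 receptor chains Il12rb2 and Il6st thus differed in opposite directions, and neither call held in every leave-out fit.

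Core Treg genes were divided. Of 15 genes 2 rose and 5 fell, or 2 and 2 without the Ebi3 library of batch 3. Foxp3 stood at 37.2, 71.4 and 29.1 CPM in Ebi3 Tregs, against 67, 128 and 50.2 CPM in DN Tregs. The ranges overlapped, but within each batch the Ebi3 library was lower, and the log2 fold change of -0.88 ± 0.26 (adjusted p = 0.0222) passed in 2 of 9 leave-out fits. Lrrc32, the GARP receptor that docks latent TGF-beta, stood at 95.7, 84 and 56.7 CPM in Ebi3 Tregs, against 162, 280.4 and 173 CPM in DN Tregs, a log2 fold change of -1.38 ± 0.22 (adjusted p = 0.000111). Gpr83, an orphan receptor of Tregs, stood at 57.3, 41.4 and 55.8 CPM in Ebi3 Tregs, against 219, 253 and 197 CPM in DN Tregs, a log2 fold change of -2.15 ± 0.51 (adjusted p = 0.00677). Ikzf2, which encodes Helios, and Capg, an actin capping protein, rose by 0.75 ± 0.17 (adjusted p = 0.00372) and 0.78 ± 0.15 (adjusted p = 0.000623), although Ikzf2 did not pass without batch 2 (adjusted p = 0.168). Il2ra, the high-affinity IL2 receptor chain, had 465, 298 and 366 CPM in Ebi3 Tregs, against 607, 550.4 and 621 CPM in DN Tregs and missed the threshold (-0.71 ± 0.24, adjusted p = 0.0501). Ctla4, which removes costimulatory ligands from other cells, also missed it, at 816, 643 and 665 CPM in Ebi3 Tregs, against 468, 479 and 541 CPM in DN Tregs (0.45 ± 0.18, adjusted p = 0.0899).

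Of 16 suppressive mediators 5 rose and 1 fell. Without the Ebi3 library of batch 3 the counts were 4 and 1, without the DN library of batch 2 or all of batch 2 they were 3 and 1, without batch 3 they were 3 and 2, and without the batch block 2 and 1. Of 13 inhibitory receptors 4 rose and 1 fell, the same counts without the Ebi3 library of batch 3, but 1 and 1 without batch 2, 2 and 2 without batch 3, and 1 and 0 without the batch block. Lgals1, the secreted lectin galectin-1, stood at 1022, 591 and 1046 CPM in Ebi3 Tregs, against 388, 170.5 and 569.6 CPM in DN Tregs, a log2 fold change of 1.27 ± 0.25 (adjusted p = 0.0011). Pdcd1, which encodes PD-1, stood at 204, 269 and 230.4 CPM in Ebi3 Tregs, against 128, 139 and 117 CPM in DN Tregs, a log2 fold change of 0.81 ± 0.12 (adjusted p = 5.79e-05). Cd200r1, the receptor for CD200, rose by 0.83 ± 0.20 (adjusted p = 0.00606) but passed in 6 of 9 leave-out fits. The gene listed as 4632428N05Rik, which encodes the checkpoint receptor VISTA, fell by 0.66 ± 0.14 (adjusted p = 0.00156), but not without batch 1 (adjusted p = 0.0712). Suppressive genes that did not pass included Entpd1 and Nt5e, the ectoenzymes CD39 and CD73, at 0.08 ± 0.16 and 0.52 ± 0.21.

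Chemokine receptors and egress genes moved in both directions. Of 21 genes of chemokine receptors and egress 6 rose, all of them chemokine receptors, and 5 fell, S1pr1, Klf2 and Ccr7 among them. Cxcr3, the receptor for interferon-induced chemokines, stood at 159.7, 272 and 200.3 CPM in Ebi3 Tregs, against 51.9, 49.1 and 70.6 CPM in DN Tregs, a log2 fold change of 1.80 ± 0.38 (adjusted p = 0.00309) that did not pass without batch 1 (adjusted p = 0.0654). Ccr4, a skin-homing receptor, stood at 115, 263 and 162 CPM in Ebi3 Tregs, against 21.6, 69.7 and 38.8 CPM in DN Tregs, a log2 fold change of 2.06 ± 0.45 (adjusted p = 0.00381) that did not pass without batch 1 (adjusted p = 0.116) or batch 2 (adjusted p = 0.0543). Ccr6, the receptor for Ccl20, stood at 223, 234 and 286 CPM in Ebi3 Tregs, against 57.2, 61 and 84.5 CPM in DN Tregs. Its libraries did not overlap, and its log2 fold change of 1.81 ± 0.53 (adjusted p = 0.0279) passed in 2 of 9 leave-out fits, as did those of Ccr3 and Ccr8. Without the batch 3 Ebi3 library, 3 genes of the list rose and 4 fell. The rises numbered 2 without the DN library of batch 1, the DN library of batch 2 or the Ebi3 library of batch 1 or 2, and 1 without the batch block.

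Integrin chains moved in both directions. Of 16 adhesion genes 4 rose and 5 fell, or 3 and 3 without the Ebi3 library of batch 3. Itgb1, the beta-1 chain, stood at 739, 875 and 829 CPM in Ebi3 Tregs, against 269.9, 429 and 341 CPM in DN Tregs, a log2 fold change of 1.19 ± 0.23 (adjusted p = 0.00079). Itga4, the alpha-4 chain that pairs with beta-1 and beta-7, stood at 58.2, 51.7 and 52.9 CPM in Ebi3 Tregs, against 211, 177 and 243 CPM in DN Tregs, a log2 fold change of -2.01 ± 0.16 (adjusted p = 7.68e-09). Itga6, the alpha-6 chain of laminin receptors, stood at 23.1, 33.4 and 36.3 CPM in Ebi3 Tregs, against 94.9, 102 and 66.3 CPM in DN Tregs, a log2 fold change of -1.54 ± 0.29 (adjusted p = 0.000586). Cd44, the hyaluronan receptor of activated T cells, rose by 1.18 ± 0.25 (adjusted p = 0.00193), but not without batch 2 (adjusted p = 0.101), and Selplg, the P-selectin ligand, fell by 0.81 ± 0.10 (adjusted p = 3.24e-06). The beta-1 and alpha-4 libraries each separated the groups without overlap, in opposite directions.

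Among 18 lineage transcription factors 7 rose and 0 fell. The rises numbered 5 without the Ebi3 library of batch 3, 4 without that of batch 2 or the DN library of batch 1, and 3 without the batch block. Rora, a nuclear receptor of type 2 and tissue lymphocytes, stood at 63.2, 107 and 58.9 CPM in Ebi3 Tregs, against 13.8, 35.4 and 25.4 CPM in DN Tregs, a log2 fold change of 1.58 ± 0.26 (adjusted p = 0.000114). Id2, an inhibitor of E proteins, stood at 150.2, 122 and 184 CPM in Ebi3 Tregs, against 60.4, 47.1 and 84.3 CPM in DN Tregs, a log2 fold change of 1.21 ± 0.20 (adjusted p = 0.000205). Prdm1, which encodes Blimp-1, rose by 1.24 ± 0.33 (adjusted p = 0.0129), and passed in 6 of 9 leave-out fits. Tbx21, Gata3 and Bcl6, the factors of Th1, Th2 and follicular helper cells, did not pass, with log2 differences of 0.40 ± 0.42, 0.32 ± 0.18 and 0.50 ± 0.66.

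Of 19 immediate early genes 5 fell and 0 rose, with 5 without the Ebi3 library of batch 3 and 3 without the DN library of batch 1. Myc, which drives growth, stood at 246, 182 and 254 CPM in Ebi3 Tregs, against 448, 374 and 406 CPM in DN Tregs, a log2 fold change of -0.91 ± 0.17 (adjusted p = 0.000495), so Myc fell in the libraries where cell cycle genes rose. Of 14 TGF-beta pathway genes 5 fell and 0 rose, or 2 fell without the Ebi3 library of batch 3, among them Smad7, an inhibitor of the pathway, at -1.24 ± 0.27 (adjusted p = 0.0025), which did not pass without batch 2 (adjusted p = 0.116). Of 18 NF-kB and TNF family genes 3 rose and 4 fell, or 3 and 3 without the Ebi3 library of batch 3. Tnfsf11, which encodes RANKL, stood at 59.1, 51.7 and 48.5 CPM in Ebi3 Tregs, against 14, 18.5 and 20.7 CPM in DN Tregs and rose by 1.51 ± 0.33 (adjusted p = 0.00243), but not without batch 2 (adjusted p = 0.0501), while the costimulatory receptor Cd27 fell by 0.76 ± 0.11 (adjusted p = 2.75e-05).

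In metabolism, 7 of 16 glycolysis genes rose and 2 fell, or 6 and 2 without the Ebi3 library of batch 3. Tpi1, triosephosphate isomerase, stood at 462, 529.6 and 377 CPM in Ebi3 Tregs, against 163, 247 and 170.5 CPM in DN Tregs, a log2 fold change of 1.19 ± 0.14 (adjusted p = 2.83e-06). Pdk1, a kinase that inhibits pyruvate dehydrogenase, stood at 54.8, 73.1 and 73.1 CPM in Ebi3 Tregs, against 182, 168 and 134 CPM in DN Tregs, a log2 fold change of -1.33 ± 0.21 (adjusted p = 8.23e-05). The groups did not overlap for either gene. In oxidative phosphorylation 3 of 22 genes passed as higher, and 0 did without the Ebi3 library of batch 3. In cholesterol synthesis 0 of 18 genes passed in edgeR, where 4 had an unadjusted p under 0.05, DESeq2 called 1 as higher and limma called 0. Of 21 cytotoxic and chemokine ligand genes 2 rose, Gzmb and Cst7, and 2 fell, Ctsw and Fasl, or 1 and 1 without the Ebi3 library of batch 3. These counts are near the shares over all genes tested, 6.96% higher and 6.07% lower. Fasl did not pass in every leave-out fit, for example without batch 1 (adjusted p = 0.115) or batch 3 (adjusted p = 0.144). Cst7, the cystatin that inhibits granule proteases, stood at 224, 260.4 and 239 CPM in Ebi3 Tregs, against 100.2, 89.7 and 108 CPM in DN Tregs, a log2 fold change of 1.23 ± 0.13 (adjusted p = 3.48e-07).

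The genes with the largest fold changes were chosen as the 15 highest and 15 lowest by log2 fold change among genes that passed, had a mean of at least 5 CPM in a group and moved the same way in all 3 batches. Of these 15 and 15, 4 and 8 passed in every leave-out fit. Lyz2, Vcam1, B230120H23Rik and Mocos had 0 counts in all 3 DN libraries, so their fold change is a lower bound, taken against 3 counts over the pooled DN libraries (0.0678 CPM). Lyz2 was at least 1180-fold higher, largely in 1 library, and its call was lost without the DN library of batch 3 (adjusted p = 0.0545) or batch 1 (adjusted p = 0.0638). Mocos, which sulfurates the molybdenum cofactor, was at least 84.5-fold higher (5.37, 4.58 and 6.68 CPM in Ebi3 Tregs, adjusted p = 0.000678). Vcam1, an adhesion molecule of endothelium and macrophages, was at least 104-fold higher, with 0.838, 8.35 and 11.9 CPM in Ebi3 Tregs and its highest value in the batch 3 library that is high in Lyz2, and passed in 6 of 9 leave-out fits. Of the genes tested, 41 that rose had 0 counts in all 3 DN libraries, and 4 that fell had 0 in all 3 Ebi3 libraries.

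Among the other rises, Mlf1, a myeloid leukaemia factor, stood at 17.2, 19.5 and 23 CPM in Ebi3 Tregs, against 0, 0.0877 and 1.58 CPM in DN Tregs, a log2 fold change of 5.18 ± 0.81 (adjusted p = 7.37e-05). Mcm10, which helps fire replication origins, stood at 22.1, 54.7 and 42.6 CPM in Ebi3 Tregs, against 1.19, 7.28 and 0.845 CPM in DN Tregs, a log2 fold change of 3.85 ± 0.86 (adjusted p = 0.00313). Zfand4 rose by 4.50 ± 0.91 (adjusted p = 0.00121), with 12.2, 5.03 and 10.9 CPM in Ebi3 Tregs, against 0.199, 0.351 and 0.62 CPM in DN Tregs. These 3 passed in every leave-out fit, and their libraries did not overlap. Sema6d, a semaphorin, and Kif14, a mitotic kinesin, rose by 4.55 ± 0.88 and 4.05 ± 0.93 and each lost its call in 1 leave-out fit, without batch 2 (adjusted p = 0.0509) for Sema6d and without batch 3 (adjusted p = 0.0513) for Kif14. Trf, which encodes the iron carrier transferrin, stood at 6.32, 0.539 and 12.6 CPM in Ebi3 Tregs, against 0, 0.351 and 0.507 CPM in DN Tregs and was lost without batch 1 (adjusted p = 0.0614) or batch 3 (adjusted p = 0.0622). Slc7a10, BC068281, Lrr1, 4930558J18Rik, Tmem159 and B230120H23Rik passed in 1 to 6 of the 9 leave-out fits and complete the 15.

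Among the falls, Itih5, an extracellular matrix protein that binds hyaluronan, stood at 8.22, 4.49 and 3.66 CPM in Ebi3 Tregs, against 110.2, 120.5 and 34.3 CPM in DN Tregs, a log2 fold change of -4.0 ± 0.40 (adjusted p = 2.45e-07). Gm11346, which has no annotated role in the files, stood at 9, 11.1 and 9.74 CPM in Ebi3 Tregs, against 114, 99.8 and 106 CPM in DN Tregs, a log2 fold change of -3.48 ± 0.39 (adjusted p = 1.32e-06). Ampd1, a deaminase of AMP best known from muscle, stood at 0.838, 0.539 and 0.791 CPM in Ebi3 Tregs, against 18.7, 12.5 and 15.6 CPM in DN Tregs, a log2 fold change of -4.46 ± 0.84 (adjusted p = 0.000666). The groups were far apart in these 3, with no overlap. G0s2, an inhibitor of fat breakdown, stood at 0.0559, 0 and 0 CPM in Ebi3 Tregs, against 8.67, 4.21 and 5.47 CPM in DN Tregs (adjusted p = 0.000561). Atp1b1, a subunit of the sodium pump, fell by 3.38 ± 0.46 (adjusted p = 2.13e-05), and Myo6, an unconventional myosin, fell by 3.06 ± 0.62 (adjusted p = 0.00136). Cnn3 and Treml2 each lost the call in 1 leave-out fit, without batch 2 (adjusted p = 0.112) for Cnn3 and without batch 1 (adjusted p = 0.0718) for Treml2. Dapk1, B430306N03Rik, Tmem108, Ccdc164 and Airn passed in 1 to 4 of 9, and Airn lies antisense over Igf2r, from which it cannot be told apart without strand. Ly6c1 and Igfbp4, described above, complete the 15.

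The same contrast was available in naive mice, with 6 other libraries of the same batches. In naive mice Ebi3 Tregs were higher than DN Tregs in 955 genes (7.40%) and lower in 703 (5.45%). Of these, 553 were also higher in the lymph node (61.6% of the lymph node rises and 57.9% of the naive ones) and 443 were also lower (56.6% and 63.0%), and 0 genes were called in opposite directions. Across the 12907 genes, which are not independent replicates, the lymph node and naive fold changes had a Pearson r of 0.42 and a Spearman rho of 0.54. The difference between the lymph node and naive contrasts was called for 0 genes (0%) by edgeR. There 708 genes had an unadjusted p under 0.05 (5.49% of genes). For the same difference DESeq2 called 25 and limma called 0. Itgae, for example, had a log2 fold change of 2.49 ± 0.21 in the lymph node and 2.47 ± 0.21 in naive mice, Ly6c1 -5.37 ± 0.32 and -5.29 ± 0.33, and Tyms 2.57 ± 0.38 and 2.57 ± 0.38. In naive mice all 21 proliferation genes rose, 22 of 27 effector genes rose, 12 of 17 resting genes fell and 7 of 22 interferon genes fell. A difference that misses the threshold does not show that the 2 contrasts were alike.

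In tumours fewer genes passed between Ebi3 and DN Tregs, where 11 genes (0.0852%) were higher in Ebi3 Tregs and 81 (0.628%) lower. Of the 11, 4 were also higher in the lymph node (0.445% of the lymph node rises and 36.4% of the tumour ones), and of the 81, 40 were also lower there (5.11% and 49.4%), while 3 genes were called in opposite directions. In the tumour 6 of 17 resting genes were lower in Ebi3 Tregs. The Ebi3 minus DN difference was higher in the lymph node than in the tumour for 125 genes (0.968%) and lower for 83 (0.643%). Of the 208 genes, 192 were called within the lymph node and 12 within the tumour. The count was 113 without the Ebi3 library of batch 2, 129 without that of batch 3, 52 without batch 2 or without batch 3 as a whole, and 40 without the batch block.

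Effector genes differed between the lymph node and the tumour. For 10 of 27 effector genes the difference was higher in the lymph node. Itgae had 62.8, 81.6 and 62 CPM in tumour Ebi3 Tregs, against 68.2, 126 and 83.8 CPM in tumour DN Tregs, a log2 fold change of -0.40 ± 0.20, and the lymph node minus tumour difference was 2.88 ± 0.29 (adjusted p = 1.41e-06). Icos had 1514, 1658 and 1468 CPM in tumour Ebi3 Tregs, against 1493, 1649.8 and 1579 CPM in tumour DN Tregs, so both tumour groups stood between the lymph node Ebi3 and DN levels, and the site difference was 1.84 ± 0.20 (adjusted p = 6.54e-06). The summed effector level was 16108 ± 2134 CPM in tumour Ebi3 Tregs and 16902 ± 685 CPM in tumour DN Tregs (SD, n = 3 each), above both lymph node groups. Ly6c1 averaged 13.5 ± 3.21 CPM in tumour Ebi3 Tregs and 32.5 ± 17.8 CPM in tumour DN Tregs (SD, n = 3 each), and its site difference was -4.18 ± 0.41 (adjusted p = 1.41e-06). S1pr1 was lower in Ebi3 Tregs at both sites, with log2 fold changes of -1.62 ± 0.18 in the lymph node and -2.04 ± 0.18 in the tumour and a site difference of 0.42 ± 0.25 (adjusted p = 0.504) that did not pass. The proliferation list had a median log2 fold change of 0.79 in the tumour, and the site difference passed for 1 of 21 genes, the chromatin protein gene Hmgb2, at 1.30 ± 0.33 (adjusted p = 0.0388).

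Among the 10 genes with the largest site differences were Mid2, Mocos, Msrb3, Galnt3 and Perp on the higher side. All 5 had 0 counts in lymph node DN Tregs, so their fitted differences are not sizes that can be read. Msrb3, a methionine sulfoxide reductase, had 1.17, 1.98 and 3.81 CPM in Ebi3 Tregs, against 0, 0 and 0 CPM in DN Tregs in the lymph node, and 6.99, 15.9 and 12.1 CPM in tumour Ebi3 Tregs, against 13.4, 22.9 and 28 CPM in tumour DN Tregs (adjusted p = 0.00031). On the lower side were Ampd1, G0s2, Ly6c1, Treml2 and Lad1. Lad1, a basement membrane anchor protein, had 51, 56.6 and 22.3 CPM in Ebi3 Tregs, against 66.2, 153 and 93.8 CPM in DN Tregs in the lymph node and 34.7, 45 and 44.4 CPM in tumour Ebi3 Tregs, against 2.8, 23.8 and 3.36 CPM in tumour DN Tregs (-3.82 ± 0.94, adjusted p = 0.0379).

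**Figure D4:**
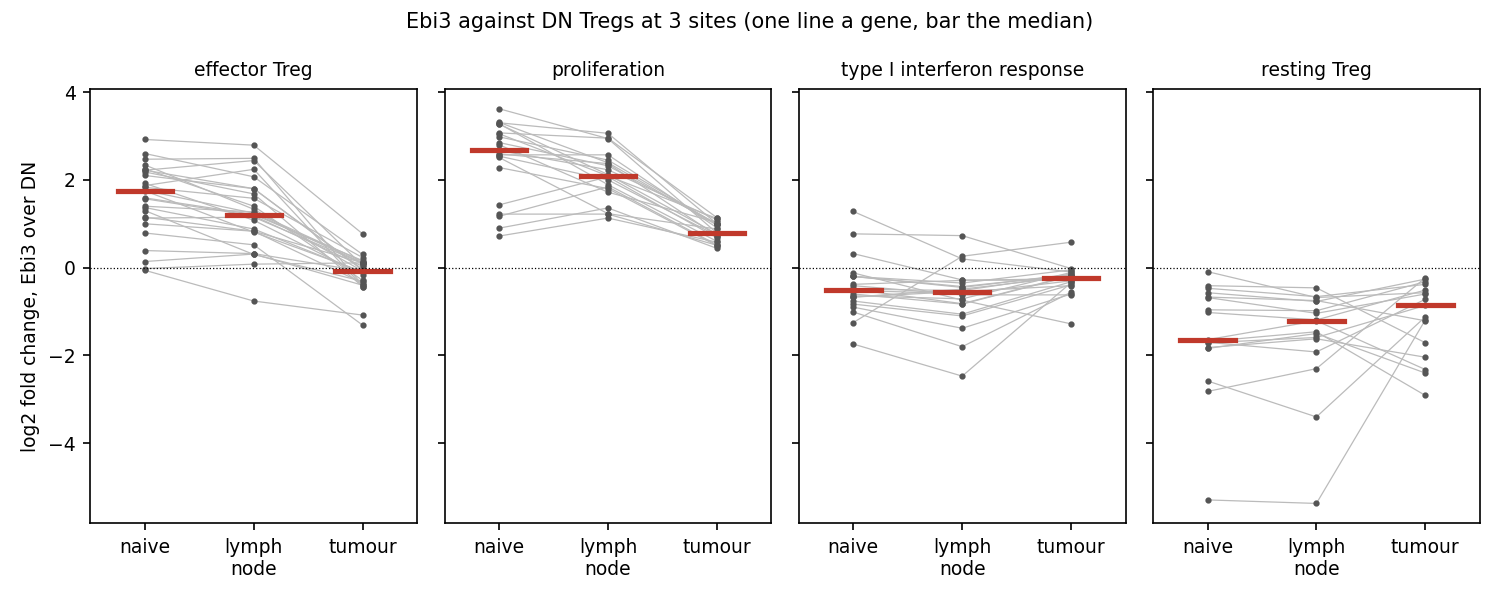
Log2 fold change of Ebi3 over DN Tregs (vertical axis) for each tested gene of 4 lists in naive mice, lymph node and tumour, one grey line a gene and a red bar at the median. The effector median is 1.75 in naive mice, 1.21 in the lymph node and -0.08 in the tumour, and the resting medians are -1.64, -1.21 and -0.86.

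Lymph node IL10 Tregs gave a further level for the same genes, and this comparison uses the same Ebi3 libraries as the one against DN Tregs. Ebi3 Tregs were higher than IL10 Tregs in 250 genes (1.94%) and lower in 404 (3.13%). Effector Treg genes were lower in Ebi3 than in IL10 Tregs in 19 of 27 cases and higher in 0, with a median log2 fold change of -1.53. They summed to 7258, 7152 and 7526 CPM in Ebi3 Tregs, 16378, 16695 and 19046 CPM in IL10 Tregs and 2546, 2762 and 4017 CPM in DN Tregs. For 22 of the 27 genes the Ebi3 mean lay between those of the other groups. Itgae stood at 206, 317 and 190.2 CPM in Ebi3 Tregs, 786, 922 and 845 CPM in IL10 Tregs and 23.8, 70.9 and 35.5 CPM in DN Tregs, and the Ebi3 over IL10 fold change was -1.95 ± 0.20 (adjusted p = 3.81e-07). Il10, the sort gene, stood at 5.14, 0 and 1.93 CPM in Ebi3 Tregs, against 94.9, 120.4 and 94.4 CPM in IL10 Tregs. Lag3 and Gzmb were lower than in IL10 Tregs by the largest steps of the list, at -3.97 ± 0.54 (adjusted p = 8.02e-05) and -3.59 ± 0.69 (adjusted p = 0.00305). Batf, Rora and Cd44 did not pass between them, with log2 differences of Ebi3 over IL10 Tregs of 0.02 ± 0.12, 0.0 ± 0.25 and 0.02 ± 0.24.

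Resting genes were higher in Ebi3 than in IL10 Tregs in 7 of 17 cases and lower in 0. Tcf7, the TCF-1 factor of resting and stem-like T cells, stood at 199, 182 and 230.4 CPM in Ebi3 Tregs, 46.7, 30.4 and 18.6 CPM in IL10 Tregs and 287, 301 and 231 CPM in DN Tregs, a log2 fold change over IL10 Tregs of 2.69 ± 0.34 (adjusted p = 1.76e-05). Id3, an inhibitor of E proteins, stood at 269.5, 292 and 266 CPM in Ebi3 Tregs, 26.5, 22.5 and 53.7 CPM in IL10 Tregs and 399, 461 and 401 CPM in DN Tregs, a fold change over IL10 Tregs of 2.94 ± 0.32 (adjusted p = 1.69e-06). Ccr7 stood at 511, 527 and 439 CPM in Ebi3 Tregs, 148, 95.2 and 75.2 CPM in IL10 Tregs and 1007, 1332 and 903 CPM in DN Tregs (2.21 ± 0.37, adjusted p = 0.000679 over IL10). Tcf7 and Id3 were thus at their lowest in IL10 Tregs, while Satb1 stood at 44.7, 56.2 and 53.6 CPM in Ebi3 Tregs, 37.1, 47.3 and 21 CPM in IL10 Tregs and 294, 252 and 199 CPM in DN Tregs and did not pass between Ebi3 and IL10 Tregs (0.57 ± 0.22, adjusted p = 0.161).

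For all 21 proliferation genes the mean was highest in Ebi3 Tregs of the 3 lymph node groups. They summed to 5817, 7672 and 6662 CPM in Ebi3 Tregs, 4045, 4076 and 4234 CPM in IL10 Tregs and 1247, 2078 and 1971 CPM in DN Tregs. Against IL10 Tregs 1 gene passed, Mcm5 at 0.95 ± 0.27 (adjusted p = 0.0443), with a median over the list of 0.71. Itgb1 passed as higher in Ebi3 Tregs against both other groups, at 739, 875 and 829 CPM in Ebi3 Tregs, 316, 349 and 299 CPM in IL10 Tregs and 269.9, 429 and 341 CPM in DN Tregs, with a fold change over IL10 Tregs of 1.28 ± 0.23 (adjusted p = 0.000771). Wnt10a, a Wnt ligand, stood at 58.6, 43.8 and 58.8 CPM in Ebi3 Tregs, 0.381, 0 and 1.77 CPM in IL10 Tregs and 3.24, 17.4 and 1.3 CPM in DN Tregs. It was higher than in IL10 Tregs by 6.11 ± 1.18 (adjusted p = 0.00176) and missed the threshold against DN Tregs (2.92 ± 1.02, adjusted p = 0.0597).

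Of the other genes with the largest differences from IL10 Tregs, Lad1 and Ncf1 were high in both Ebi3 and DN Tregs. Lad1 stood at 51, 56.6 and 22.3 CPM in Ebi3 Tregs, 0.0635, 0.391 and 0.376 CPM in IL10 Tregs and 66.2, 153 and 93.8 CPM in DN Tregs. Ncf1, a subunit of the phagocyte NADPH oxidase, stood at 9.72, 7.82 and 9.84 CPM in Ebi3 Tregs, 0, 0 and 0.859 CPM in IL10 Tregs and 10.5, 26.5 and 9.98 CPM in DN Tregs. Sspo and Hc were low in both other groups, and Hc, which encodes complement C5, stood at 2.96, 8.17 and 6.13 CPM in Ebi3 Tregs, 0.0635, 0 and 0.107 CPM in IL10 Tregs and 1.72, 0 and 0 CPM in DN Tregs. On the lower side were Srgap3, Ccl4, Il10, Pparg and Ccr1. Pparg, a nuclear receptor of tissue Tregs, stood at 0, 1.17 and 0.0989 CPM in Ebi3 Tregs, 17.8, 8.69 and 7.14 CPM in IL10 Tregs and 0, 0 and 0 CPM in DN Tregs and Ccr1, a chemokine receptor, at 0, 1.71 and 0.791 CPM in Ebi3 Tregs, 11.2, 18.5 and 12.1 CPM in IL10 Tregs and 0.0662, 2.02 and 0.395 CPM in DN Tregs. Both were near 0 in Ebi3 and DN Tregs alike, with fold changes of Ebi3 over IL10 Tregs of -5.22 ± 1.04 (adjusted p = 0.00327) and -4.34 ± 0.76 (adjusted p = 0.000741). The count of 654 genes between Ebi3 and IL10 Tregs was 351 without the Ebi3 library of batch 3, 416 without that of batch 1, 178 without batch 3 as a whole and 250 without the batch block.

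**Figure D5:**
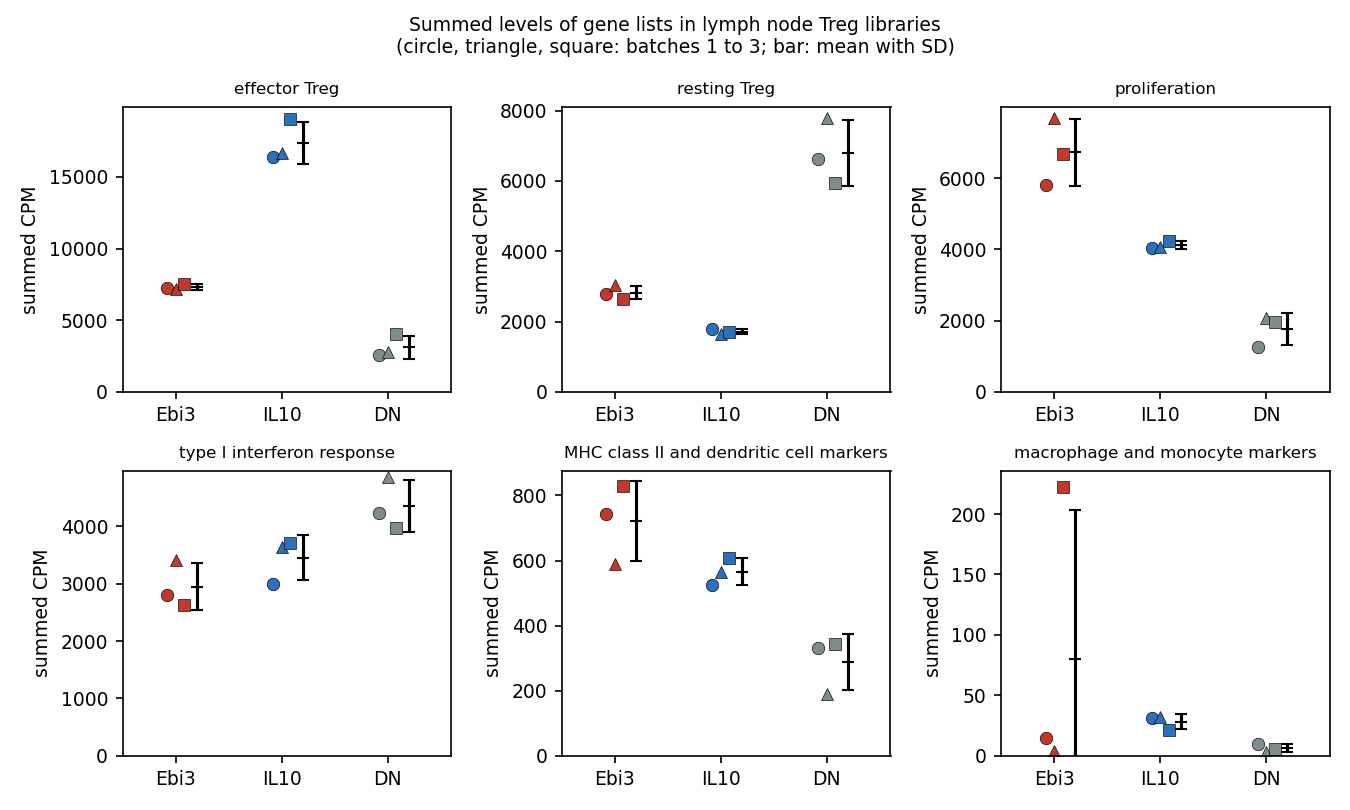
Summed CPM (vertical axis) of 4 gene lists and 2 marker lists in lymph node Ebi3, IL10 and DN Treg libraries, with symbols for the 3 batches and a bar for the mean with SD. Effector genes stand highest in IL10 Tregs, proliferation genes in Ebi3 Tregs and resting genes in DN Tregs, and 1 Ebi3 library reaches 222.6 CPM of macrophage markers.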

How the data were processed

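SMART-Seq v4 cDNA of sorted mouse Tregs was made into libraries with the Nextera XT kit, per the labels' protocols. Per the submitters' processing notes, STAR, featureCounts of Subread and limma were used with mm10. No label gives their versions, their roles or whether counting used strand. The deposited raw counts per gene cover 23420 genes. The deposited log2 values, for 9885 genes, equal log2 CPM (offset 0.5) plus a constant for each gene and batch (median SD of the remainder 0.00054). The CD8 T cell libraries were not used here.

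The counts of all 30 Treg libraries in 10 groups were fitted with edgeR 4.0.16 (quasi-likelihood, robust, TMM scaling, filterByExpr) in R 4.3.3, with group and batch as terms, and each comparison is a contrast adjusted by Benjamini-Hochberg over 12907 genes, called at 0.05. A log2 fold change is given ± its SE. CPM are counts scaled to the library total, without the TMM factor.

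The batch block follows the labels. Deviations from group means had a median correlation of 0.093 between same-batch libraries and -0.078 between others, and 0.11, 0.25 and 0.10 for the 3 lymph node Ebi3 and DN pairs. Replicates differed by more than counting noise.

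The members and gene lists were chosen with earlier results of these data known. Named genes are the 15 largest rises and falls with a mean of at least 5 CPM and 1 sign in 3 batches, the sort genes, up to 4 members of each list by adjusted p, the 5 highest and lowest of each further comparison, and markers of other cells. Other list members were named after their values were seen. Alternatives were RLE and upper quartile scaling, other low-count filters, DESeq2 1.42.0, limma 3.58.1 on the log2 values, no batch block, the 6 libraries alone, and leaving out each batch or library. Some list members are not reported here.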

Additional observations from a re-analysis of the deposited data

Results flagged for a closer look

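The difference between Ebi3 and DN Tregs was not the same in the lymph node and in the tumour for 208 genes, by edgeR's test of the difference itself with Benjamini-Hochberg adjustment. The genes below are named above, except Tox, Tnfrsf1a and Tnfrsf1b. Within the lymph node Tox did not pass without batch 1 (adjusted p = 0.131), batch 2 (adjusted p = 0.0684) or the DN library of batch 1 (adjusted p = 0.0835). Tnfrsf1a did not pass without batch 3 (adjusted p = 0.0552). Values are log2, lymph node minus tumour, so a positive one means a larger Ebi3 over DN fold change in the lymph node.

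Among effector Treg genes the values were 2.88 for Itgae, 2.39 for Maf, 2.11 for Il1rl1, 1.84 for Icos, 1.77 for Fgl2, 1.34 for Rora, 1.18 for Tnfrsf1b, a TNF receptor of Tregs, 1.05 for Batf and 0.89 for Pdcd1. Other genes of receptors, factors and cytokines stood at 5.27 for Il10, 2.40 for Il1r2, 1.14 for Cd200r1, 1.04 for Tox and 1.01 for Ikzf2. Cst7, Hmgb2 and Tpi1 had 1.44, 1.30 and 1.16.

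Genes lower in lymph node Ebi3 Tregs had negative values, at -4.18 for Ly6c1, -2.06 for Satb1, -1.48 for Itga4, -1.21 for Tnfrsf1a, the other TNF receptor, -1.08 for Myc and -0.62 for Selplg. Further negative values were -4.04 for Treml2, -3.82 for Lad1, -3.43 for Myo6 and -3.23 for Itih5. On the positive side stood 4.92 for Trf, 4.68 for Zfand4 and 4.30 for Mlf1.

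Mid2, Mocos, Msrb3, Galnt3 and Perp had fitted values of 10.44, 9.68, 8.90, 8.29 and 7.76. Their lymph node DN libraries were all at 0 counts, so these depend on the prior count and are not sizes. The same holds for -9.53 for Ampd1, whose tumour DN libraries were all at 0, and for -8.01 for G0s2, which was at or near 0 in lymph node Ebi3 and both tumour groups.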

How the results depend on the processing

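The same replicate number marks the same batch in the labels, so batch was kept as a block. With no replicate block, rises fell to 415 and falls to 347, against 898 and 783 with it, the effector count was 11 of 27, the interferon count 7 of 22, the lymph node against tumour count 40 and the Ebi3 against IL10 count 250. Leaving out a batch or 1 library gave 426 to 771 rises, 339 to 695 falls, 12 to 18 effector rises, 8 to 18 proliferation rises, 8 to 12 resting falls, 6 to 12 interferon falls, 52 to 163 genes for lymph node against tumour, 0 to 5 for lymph node against naive and 178 to 455 against IL10. These fits use fewer libraries. DESeq2 gave 404 genes for lymph node against tumour and 25 for lymph node against naive, and the cause was not tested. Other scalings, filters, limma on the deposited log2 values and a fit of the 6 libraries alone kept these counts within 1.5 times where they could be made, and the 6 libraries alone give no value for the tumour, naive and IL10 comparisons. Of 101 named genes that passed, 75 passed without the block and 71 to 90 over the leave-out fits, and none of the 138 tested reversed while called. Genes under a few CPM are limited by depth, since 3 counts were 0.148 to 0.269 CPM.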
